A study of Mus musculus with 12 samples.

Results

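The plasminogen activator system of the mouse striatum is described here through 6 of the 52169 gene symbols in the deposited transcript table. The members were chosen by name: the serine protease inhibitors (serpins) *Serpinb2*, *Serpine2* and *Serpini1*, the proteases *Plat* and *Plau*, and the receptor *Plaur*. *Serpinb2* heads the list because of its pattern across the groups, so its levels are given as a description and without a test. A group in which every library held at most 3 reads of a transcript was taken to be at the floor of the measurement.

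Female C57BL/6J mice had received 6-OHDA, a toxin that destroys dopamine neurons, in the medial forebrain bundle of the right hemisphere after desipramine, which protects noradrenergic neurons. After 2 weeks of recovery, L-DOPA (10 mg/kg), the precursor of dopamine, was injected with benserazide (7.5 mg/kg), which blocks its conversion outside the brain, and striatal punches were taken 1 h after the last injection. Acute L-DOPA was a single injection and chronic L-DOPA a daily injection for 9 days, and RNA-seq libraries came from both hemispheres, lesioned and unlesioned, with 3 libraries in each of the 4 groups. All groups share the surgery and L-DOPA, libraries of saline-treated mice were not analysed here, and lesion and right hemisphere cannot be told apart. Chronic mice had 9 days of injections after the same recovery, so between treatments repeated L-DOPA and a later time after surgery cannot be told apart. In punches of whole tissue, fewer cells of a type and less RNA per cell cannot be told apart either.

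Plasminogen activators cut the inactive precursor plasminogen into plasmin, a protease that digests fibrin and matrix proteins and can process growth factor precursors. Tissue plasminogen activator, encoded by *Plat*, is released by neurons and glia and is known for its part in synaptic plasticity, while urokinase, encoded by *Plau*, acts at the cell surface when it is held by its receptor, encoded by *Plaur*. Serpins trap these proteases in an irreversible complex: *Serpinb2* encodes plasminogen activator inhibitor 2, which stays largely inside the cell, *Serpine2* encodes protease nexin 1, which is secreted mainly by glia, and *Serpini1* encodes neuroserpin, an inhibitor of tissue plasminogen activator made by neurons.

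The promoters of 3 members are shown because the same 8 letters, TGACATCA, a variant of the cAMP response element, occur in those of *Serpinb2* and *Plat*, and an AP-1 element occurs in that of *Plaur*. Each window runs from 270 bases before the start of the most upstream RefSeq transcript in the table to 30 bases into it, on the mm9 genome and on the plus strand: chr1:109407730-109408029 for *Serpinb2*, chr8:23867946-23868245 for *Plat* and chr7:25247249-25247548 for *Plaur*. Capitals mark the matches, which are TGACATCA and TATAAA in *Serpinb2*, TGACATCA in *Plat*, and TGACTCA in *Plaur*.
Serpinb2: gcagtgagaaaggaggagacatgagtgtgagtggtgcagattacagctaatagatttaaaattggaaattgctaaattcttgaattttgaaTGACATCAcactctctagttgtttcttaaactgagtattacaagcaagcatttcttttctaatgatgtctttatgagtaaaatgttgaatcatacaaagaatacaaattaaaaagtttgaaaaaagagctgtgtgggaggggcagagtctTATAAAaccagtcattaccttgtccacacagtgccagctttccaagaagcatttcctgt
Plat: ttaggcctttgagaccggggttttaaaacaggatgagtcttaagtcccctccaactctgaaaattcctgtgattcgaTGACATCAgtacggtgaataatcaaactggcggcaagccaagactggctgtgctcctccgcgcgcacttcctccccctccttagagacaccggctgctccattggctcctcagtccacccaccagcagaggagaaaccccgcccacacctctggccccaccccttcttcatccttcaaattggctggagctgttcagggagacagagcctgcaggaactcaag
Plaur: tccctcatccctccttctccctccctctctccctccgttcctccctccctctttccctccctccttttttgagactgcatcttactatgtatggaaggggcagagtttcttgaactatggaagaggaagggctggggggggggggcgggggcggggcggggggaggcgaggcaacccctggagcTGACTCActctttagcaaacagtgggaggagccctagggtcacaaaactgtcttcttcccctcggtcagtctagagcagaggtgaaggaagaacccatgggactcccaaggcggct

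In the *Serpinb2* window TGACATCA began at position -179 and the TATA box letters TATAAA at position -29, counted back from the base before the start. In the *Plat* window TGACATCA began at position -193, and in the *Plaur* window the AP-1 letters, read on the opposite strand, began at position -86. Searched on both strands, TGACATCA was present in 2.46% of 20267 promoters of the same length, TATAAA in 13.3% and the AP-1 letters TGAGTCA in 4.55%. The full cAMP response element TGACGTCA, found in 2.54% of promoters, and its core TGACG, which lies within it and was found in 24.8%, had a match only in the *Plau* window, where the core began at position -208. The windows of *Serpine2* and *Serpini1* held none of these letters. In a first search, with 250 bases before the start of another *Serpinb2* transcript, TATAAA was found in the *Serpinb2* window and TGACATCA was not; the more upstream start was chosen after that result was seen. A match is a description of letters and was not tested as a binding site.

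Levels are given as CPM, read counts scaled to the library total, of the transcript with the highest mean CPM of each gene, after trimmed-mean (TMM) scaling of the libraries. The totals ran from 87695043 to 173116525 counts per library, and they exceed the number of reads because a read adds to the count of each overlapping transcript. Marker genes of medium spiny neurons, the main neurons of the striatum, summed to between 1780 and 2430 CPM in all libraries. Of these markers, *Drd1a*, the gene of the dopamine D1 receptor, moved with the lesion, from between 63.0 and 69.1 to between 11.2 and 15.0 CPM after acute and from between 65.8 and 75.5 to between 21.9 and 32.9 CPM after chronic L-DOPA, and its relation to the members was not tested. *Ppp1r1b* was lower on the lesioned side after chronic L-DOPA, between 364 and 514 against between 537 and 609 CPM, and overlapped after acute L-DOPA. *Drd2*, the gene of the dopamine D2 receptor, was higher on that side after acute L-DOPA, between 89.5 and 100 against between 76.3 and 87.0 CPM. It overlapped after chronic L-DOPA, so the sum holds markers that moved in opposite directions. Chronic unlesioned replicate 2 stood apart from the others: markers of choroid plexus and meninges summed to 474 CPM there and to between 3.29 and 5.82 CPM in the other 11 libraries. The design counts 12 mice with 3 per group and does not say what a shared replicate number means, but same-numbered lesioned and unlesioned libraries deviated together within each treatment, and a fit with the number as a block is given where it changes a call of a member. The paper states that a mouse can be its own control and that a punch was taken per hemisphere, so the number of animals is uncertain.

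*Serpinb2* transcripts were present at a measurable level in a single group, the lesioned striatum after chronic L-DOPA. The acute unlesioned libraries held 0, 3 and 0 reads, the acute lesioned libraries 0, 1 and 2 reads, and the chronic unlesioned libraries 3, 0 and 1 reads of its top transcript (NM_011111, on chromosome 1 of mm9 from 109408087 to 109422177, with 8 exons). The 3 chronic lesioned libraries held 236, 689 and 211 reads, which are 2.69, 6.31 and 1.93 CPM. The lowest of these libraries lay far above the highest count of the other 9, and replicate 2 lay more than 2 times above each of the others of its group. A count of 3 reads corresponds to between 0.0171 and 0.0347 CPM in these libraries, counting error only. Against this floor, averaged over the libraries of each group, the mean of 3.64 ± 2.3 CPM (SD, n = 3) was higher by at least 178-fold against the acute unlesioned, at least 128-fold against the acute lesioned and at least 150-fold against the chronic unlesioned striatum. Without chronic lesioned replicate 2 these bounds were 113, 81.4 and 95.4.

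**Figure D1:**
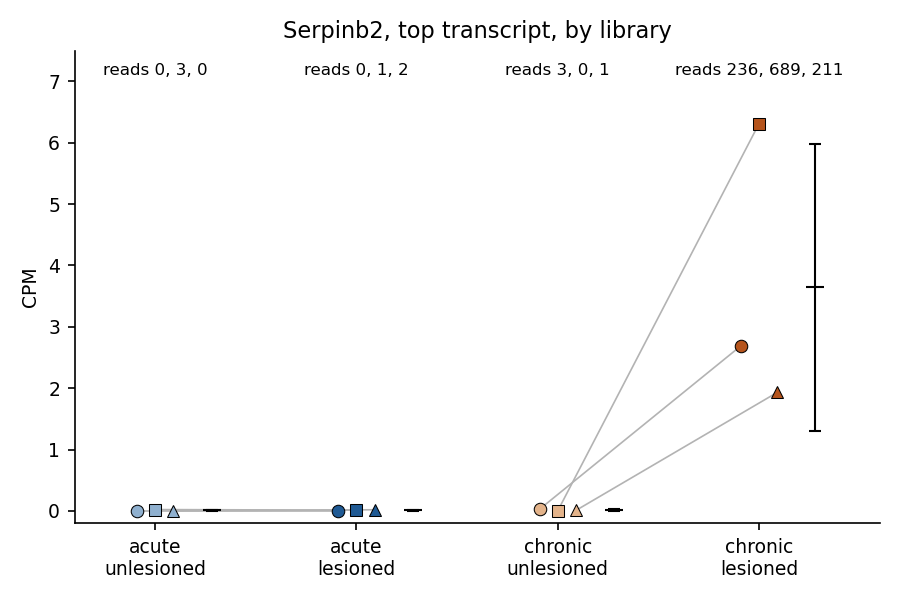
*Serpinb2* level (CPM of the top transcript, linear axis) in each library of the 4 groups, with the read counts of replicates 1 to 3 above. Points are libraries, grey lines join libraries of the same number within a treatment, and black marks give mean ± SD (n = 3); the 9 libraries outside the chronic lesioned group hold at most 3 reads, and the chronic lesioned libraries lie between 1.93 and 6.31 CPM.

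The table lists 6 transcripts of *Serpinb2*, and 4 of them have 8 exons and hold between 231 and 236, between 680 and 689, and 210 or 211 reads in the chronic lesioned libraries. A transcript annotated for nonsense-mediated decay, ENSMUST00000143832, held 77, 212 and 54 reads in the chronic lesioned libraries and at most 1 read elsewhere. Of its 757 bases, 547 are shared with the coding transcripts, and the remaining 210 lie in exons of the neighbouring pseudogene *Serpinb10-ps*, whose own 5 transcripts held at most 1 read in any library. A shorter transcript of this kind, ENSMUST00000146597, held 11, 23 and 8 reads. A clone inside *Serpinb2*, AK170834 (chromosome 1 from 109410401 to 109412097), is assigned to *Polr2a* in the table. It held 15, 39 and 7 reads in the chronic lesioned libraries and at most 1 elsewhere, and 57 of its 1697 bases are exonic in *Serpinb2*. Its counts thus followed the order of the *Serpinb2* counts over these 3 libraries, and the kit does not mark strand, so that reads of either strand are included.

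*Serpinb2* is also made by monocytes and macrophages, and the markers of those cells were therefore read beside it. The summed level of 10 monocyte and neutrophil markers lay between 0.952 and 1.00 CPM in the chronic lesioned and between 0.759 and 1.07 CPM in the chronic unlesioned libraries, and it was higher after acute L-DOPA, from 1.33 to 4.60 CPM over both sides. The markers *Ly6g*, *Ngp* and *Camp* were at the floor in every library, and *Ccr2*, a receptor of inflammatory monocytes, held 1, 0 and 2 reads in the chronic lesioned libraries. The 10 microglia and macrophage markers summed to between 58.4 and 74.0 CPM in the chronic lesioned and between 55.4 and 71.4 CPM in the chronic unlesioned libraries. The highest sums of both lists lay in acute lesioned libraries, and the part of these cells in the *Serpinb2* level was not tested.

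Among 12795 genes with a mean of at least 1 CPM, the 5 whose log2(CPM + 1) followed *Serpinb2* most closely over the 12 libraries were *Rnf217* (Pearson's r = 0.971), *Tns1* (0.970), 2610027L16Rik (0.970), *Zfp516* (0.970) and *Entpd7* (0.968). *Rnf217*, which encodes a RING finger protein, lay between 1.18 and 1.76 CPM in the 9 other libraries and between 4.59 and 6.26 CPM in the chronic lesioned libraries. *Tns1*, the gene of the focal adhesion protein tensin 1, lay between 11.6 and 15.5 CPM in those 9 and between 30.2 and 43.2 CPM in the chronic lesioned libraries. The 12 points share 4 groups and the coefficients are a description. The choice of these genes depended on the scale: with a pseudocount of 0.1 CPM *Inhba* came first and only *Rnf217* of the 5 remained, and without chronic lesioned replicate 2 none of the 5 remained.

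*Plat* was higher on the lesioned side after both treatments, and it was the only member called after both in the fit without the replicate block; with the block *Plaur* and *Serpini1* were called as well. After acute L-DOPA it lay at 6.05, 6.11 and 4.93 CPM in the unlesioned and at 11.8, 10.6 and 9.19 CPM in the lesioned libraries. After chronic L-DOPA it lay at 5.32, 5.19 and 5.50 CPM in the unlesioned and at 9.38, 11.1 and 8.99 CPM in the lesioned libraries. All 6 lesioned libraries were above all 6 unlesioned libraries. The log2 fold change was 0.90 after acute L-DOPA (standard error, SE, 0.10; adjusted p = 0.000148 in the edgeR quasi-likelihood F-test, corrected after Benjamini-Hochberg across the whole table) and 0.88 after chronic L-DOPA (SE 0.10, adjusted p = 0.000257 in the same edgeR test). All 6 transcripts of *Plat* were called higher in both comparisons, but a read counts for each overlapping transcript, so these calls are not independent. In same-numbered libraries the lesioned level was between 1.64 and 2.14 times the unlesioned level.

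*Plat* levels were close between the treatments on either side. The chronic minus acute difference was -0.10 on the log2 scale in the lesioned striatum (SE 0.11, adjusted p = 0.541 in edgeR) and -0.092 in the unlesioned striatum (SE 0.091, adjusted p = 0.606 in edgeR). The difference of the lesion effects between chronic and acute L-DOPA was -0.012 (SE 0.15, adjusted p = 0.979 in the edgeR interaction). Astrocyte markers moved in the same direction as *Plat*: their sum lay between 685 and 743 CPM in the acute unlesioned and between 760 and 954 CPM in the acute lesioned libraries, and between 668 and 767 against 788 and 813 CPM after chronic L-DOPA. Their part in the *Plat* difference was not tested. The genes most like *Plat* over the 12 libraries were the clone AK135066 (r = 0.979), *Nolc1*, which encodes a nucleolar phosphoprotein (0.978), and *Vps37b*, which encodes an endosomal sorting protein (0.971).

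*Plau* was low throughout and passed the test in no comparison. It lay at 0.251, 0.217 and 0.187 CPM in the acute unlesioned, 0.295, 0.312 and 0.372 in the acute lesioned, 0.238, 0.218 and 0.115 in the chronic unlesioned and 0.183, 0.265 and 0.284 CPM in the chronic lesioned libraries. The acute lesioned libraries were all above the acute unlesioned libraries, and the chronic groups overlapped. The lesioned minus unlesioned difference on the log2 scale was 0.57 after acute L-DOPA (SE 0.22, adjusted p = 0.111 in edgeR) and 0.40 after chronic L-DOPA (SE 0.33, adjusted p = 0.494 in edgeR). The genes most like *Plau* were *Ctsc*, the gene of the lysosomal protease cathepsin C (r = 0.909), AI503316 (0.881) and *Arhgap18* (0.869), a GTPase-activating protein.

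*Plaur*, the receptor that holds urokinase at the cell surface, fell between acute and chronic L-DOPA on the lesioned side. It lay at 0.382, 0.805 and 0.210 CPM in the acute unlesioned, 0.742, 1.32 and 0.465 in the acute lesioned, 0.119, 0.151 and 0.189 in the chronic unlesioned and 0.205, 0.394 and 0.266 CPM in the chronic lesioned libraries. Acute replicate 2 was the highest library on both sides, and the chronic libraries lay below all acute libraries of the same side. In the lesioned striatum *Plaur* fell by 1.50 on the log2 scale from acute to chronic L-DOPA (SE 0.36, adjusted p = 0.0140 in edgeR), and the adjusted p was 0.0535 without acute lesioned replicate 2, 0.0662 without chronic lesioned replicate 1 and 0.0529 without chronic lesioned replicate 3. In the unlesioned striatum the difference was -1.57 (SE 0.44, adjusted p = 0.0773 in edgeR), and DESeq2 called it (adjusted p = 0.00761).

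Within each treatment, *Plaur* was higher in the lesioned than in the unlesioned library of the same number in all 6 pairs, by between 1.41 and 2.61 times. The log2 fold change was 0.83 after acute L-DOPA (SE 0.41, adjusted p = 0.210 in edgeR) and 0.91 after chronic L-DOPA (SE 0.31, adjusted p = 0.0928 in edgeR). With the replicate number as a block in the edgeR fit it was 0.90 (adjusted p = 0.00127) and 0.89 (adjusted p = 0.0418). Without acute unlesioned replicate 2 the acute value was 1.44 (adjusted p = 0.0382 in edgeR). Blood markers were highest in the same libraries as *Plaur*: red blood cell markers summed to 8.66 and 10.5 CPM in acute replicate 2 of the unlesioned and lesioned side and to between 1.83 and 6.78 CPM in the other 10 libraries, and monocyte and neutrophil markers to 3.61 and 4.60 CPM there and to between 0.759 and 2.63 CPM in the others. On the lesioned side the blood and myeloid sums were also lower after chronic than after acute L-DOPA without overlap: from between 2.42 and 4.60 to between 0.952 and 1.00 CPM for monocyte and neutrophil, from between 5.30 and 10.5 to between 1.87 and 3.62 CPM for red blood cell, and from between 91.4 and 107 to between 58.4 and 74.0 CPM for microglia and macrophage markers. The part of these cells in the *Plaur* levels was not tested. The genes most like *Plaur* were *Pgm5* (r = 0.993), *Errfi1*, an inhibitor of the epidermal growth factor receptor (0.975), and *Rasip1*, a vascular Ras-interacting protein (0.966).

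**Figure D2:**
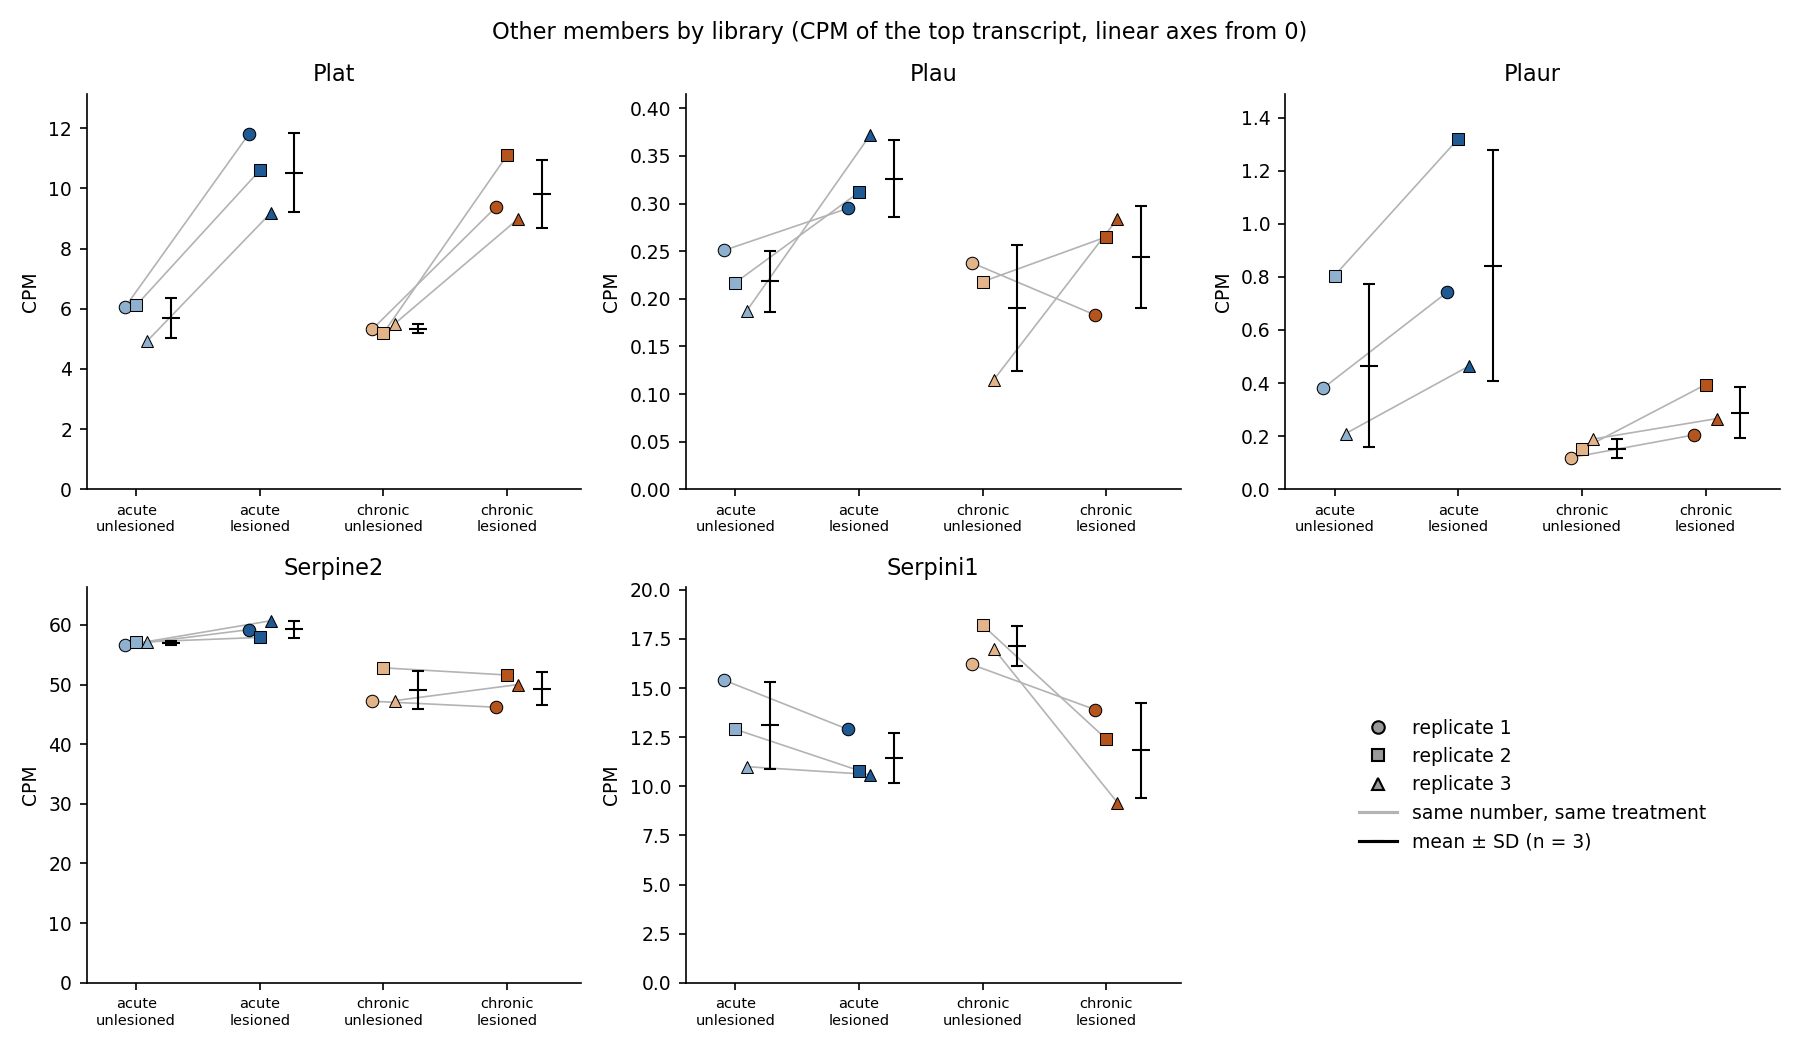
Levels of *Plat*, *Plau*, *Plaur*, *Serpine2* and *Serpini1* (CPM of the top transcript, linear axes from 0) in the 4 groups. Symbols are replicates 1 to 3, grey lines join libraries of the same number within a treatment, and black marks give mean ± SD (n = 3); *Plat* separates lesioned from unlesioned libraries after both treatments, and *Plaur* is higher in the lesioned library of all 6 pairs.

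*Serpine2* was the most abundant member in all 12 libraries. It lay at 56.6, 57.1 and 57.2 CPM in the acute unlesioned, 59.2, 57.9 and 60.7 in the acute lesioned, 47.2, 52.8 and 47.3 in the chronic unlesioned and 46.2, 51.6 and 50.0 CPM in the chronic lesioned libraries. Lesioned and unlesioned levels were close, with log2 fold changes of 0.067 after acute L-DOPA (SE 0.055, adjusted p = 0.458 in edgeR) and 0.006 after chronic L-DOPA (SE 0.084, adjusted p = 0.975 in edgeR). In the lesioned striatum *Serpine2* fell by 0.27 on the log2 scale from acute to chronic L-DOPA (SE 0.075, adjusted p = 0.0256 in edgeR), and leaving out any library other than chronic lesioned replicate 2 raised the adjusted p to between 0.0543 and 0.106. In the unlesioned striatum the difference was -0.21 (SE 0.069, adjusted p = 0.117 in edgeR). Without chronic unlesioned replicate 2, the library with the choroid plexus markers, it was -0.27 (adjusted p = 0.0177 in edgeR). The microglia and macrophage markers moved in the same direction, from between 81.5 and 107 CPM in the acute to between 55.4 and 74.0 CPM in the chronic libraries, and their part in the *Serpine2* difference was not tested. The gene 5730433N10Rik lies inside *Serpine2* on the same strand and can share its reads. The genes most like *Serpine2* were *Hexa*, the alpha subunit of lysosomal hexosaminidase (r = 0.982), *Josd2* (0.972) and *Apln*, which encodes the peptide apelin (0.969).

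After chronic L-DOPA *Serpini1* was lower on the lesioned side. It lay at 16.2, 18.2 and 17.0 CPM in the chronic unlesioned and at 13.9, 12.4 and 9.17 CPM in the chronic lesioned libraries, without overlap. The log2 fold change was -0.53 (SE 0.13, adjusted p = 0.0275 in edgeR, and 0.0025 with the replicate block), and 9 of its 10 transcripts, which can share reads, were called lower. The adjusted p rose to between 0.0556 and 0.0786 when 1 of the chronic unlesioned libraries or chronic lesioned replicate 3 was left out. After acute L-DOPA it lay at 15.4, 12.9 and 11.0 CPM in the unlesioned and at 12.9, 10.8 and 10.6 CPM in the lesioned libraries, a log2 fold change of -0.19 (SE 0.11, adjusted p = 0.308 in edgeR). With the replicate number as a block it was -0.18 (adjusted p = 0.0379 in edgeR), as every lesioned library lay below the unlesioned library of its number, at between 0.835 and 0.962 times its level.

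The chronic lesioned and acute lesioned libraries overlapped in *Serpini1* (log2 difference 0.046, SE 0.14, adjusted p = 0.843 in edgeR), and in the unlesioned striatum the difference was 0.39 (SE 0.11, adjusted p = 0.0752 in edgeR). DESeq2 called the latter (adjusted p = 0.0148). The difference of the lesion effects was -0.34 (SE 0.20, adjusted p = 0.375 in the edgeR interaction), so the lesion effects were not shown to differ between the treatments. The summed markers of cortical glutamatergic neurons moved with *Serpini1* in the pairs of libraries: they were 35.5, 17.4 and 16.7 CPM in the acute unlesioned, 20.8, 6.02 and 6.06 in the acute lesioned, 29.3, 10.2 and 48.1 in the chronic unlesioned and 27.6, 6.11 and 5.14 CPM in the chronic lesioned libraries. Their part in the *Serpini1* difference was not tested. The clone AK156434 lies inside *Serpini1* on the same strand and can share its reads. The genes most like *Serpini1* were *Ttc37* (r = 0.918), *Zdhhc21*, a palmitoyltransferase (0.915), and *Klhl24* (0.909).

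**Figure D3:**
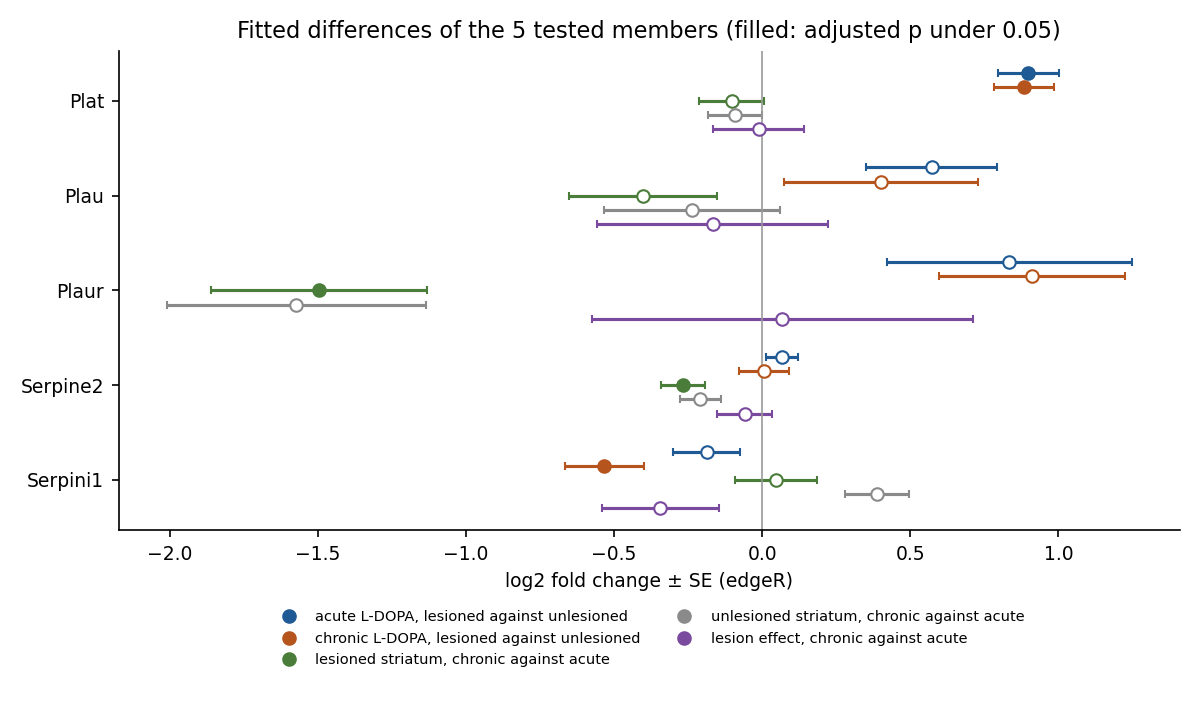
Fitted log2 fold changes (edgeR, horizontal axis, bars ± standard error) of the 5 tested members in the 5 comparisons, filled where the adjusted p lay under 0.05. *Plat* is called in both lesion comparisons, *Serpini1* in the chronic one, and *Plaur* and *Serpine2* in the lesioned striatum between treatments; the first group named is the numerator.

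The counts of called members were read against all genes, each by its top transcript. After acute L-DOPA 1 of the 5 tested members was higher in the lesioned striatum and 0 were lower, where 8.16% of 20402 genes were higher and 7.16% lower, and after chronic L-DOPA 1 was higher and 1 lower, where 8.46% of 19742 genes were higher and 5.20% lower. With the replicate block 3 members were called after each treatment, where 21.8% of all transcripts after acute and 21.6% after chronic L-DOPA were called in either direction. From acute to chronic L-DOPA 2 members were lower in the lesioned striatum, where 12.5% of 19790 genes were higher and 13.1% lower. In the unlesioned striatum edgeR called 0 of 5, against 1.07% of 20290 genes higher and 1.99% lower. There 3 members had an unadjusted p under 0.05 and DESeq2 called 2. Over all transcripts DESeq2 called 6278 where edgeR called 3366, and the share of genes at an unadjusted p under 0.05 is not given here. The interaction also called 0 of 5, with 0 at an unadjusted p under 0.05 and 0 in DESeq2, against 3.53% of 20682 genes higher and 1.56% lower.

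Per length, the order of the members differed between the sides. In the unlesioned striatum the mean level in CPM per kilobase of transcript fell from *Serpine2* (25.8 after acute and 22.2 after chronic L-DOPA) through *Serpini1* (3.20 and 4.18) and *Plat* (2.25 and 2.11) to *Plaur* (0.310 and 0.102), *Plau* (0.0933 and 0.0811) and *Serpinb2*, which was at the floor. In the lesioned striatum *Plat* (4.17 and 3.88) lay above *Serpini1* (2.79 and 2.89). After chronic L-DOPA *Serpinb2* reached a mean of 1.83 CPM per kilobase (from 0.971 to 3.17), below *Serpini1* and above *Plaur* (0.192). Neighbours in this order whose libraries overlapped were *Plaur* and *Plau* in the chronic unlesioned group and *Serpini1* and *Serpinb2* in the chronic lesioned group, and all other neighbours were separated in each library. *Plg*, which encodes plasminogen itself, had at most 0.0151 CPM in any library and was thus at the floor in all groups.

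Beyond the members, 69 genes of 6 lists were followed, from inhibitors and surface receptors to substrates and related serpins. After acute L-DOPA 13 of the 54 tested were higher and 2 lower in the lesioned striatum, with a median log2 fold change of 0.17 against 0.015 over all genes tested, of which 8.16% were higher and 7.16% lower. After chronic L-DOPA 11 of 54 were higher and 2 lower, with a median of 0.045 against -0.015 over all genes, of which 8.46% were higher and 5.20% lower. From acute to chronic L-DOPA 7 of 54 were higher and 13 lower in the lesioned striatum, against 12.5% and 13.1% of all genes, with a median of -0.15 against -0.024. The 7 here and the 11 after chronic L-DOPA include *Serpinb5*, which passed the count filter only through the chronic lesioned group, where it is high. In the unlesioned striatum 0 of 53 were higher and 5 lower, against 1.07% and 1.99% of all genes. With the replicate block 17 were higher and 4 lower on the lesioned side after acute, and 14 higher and 5 lower after chronic L-DOPA, where 21.8% and 21.6% of all transcripts were called in either direction. Of the 13 rises after acute and the 11 after chronic L-DOPA, 7 and 8 belonged to a list of 8 genes that nuclear calcium signalling switches on in neurons, a list in which *Serpinb2* is also known as a member.

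Among the inhibitors and regulators of plasminogen activation 2 of 10 tested genes rose and 1 fell on the lesioned side after acute L-DOPA, against 8.16% and 7.16% of all genes, and these 3 were chosen after their values were seen. *Serping1*, the gene of the C1 inhibitor, a plasma serpin, lay at 0.674, 0.464 and 0.479 CPM in the acute unlesioned and at 0.946, 0.948 and 0.994 CPM in the acute lesioned libraries, without overlap (log2 fold change 0.83, SE 0.16, adjusted p = 0.00604 in edgeR). *A2m*, the gene of alpha-2-macroglobulin, a broad inhibitor that traps proteases in its cage, lay at 0.103, 0.130 and 0.142 CPM in the acute unlesioned and at 0.674, 0.312 and 0.437 CPM in the acute lesioned libraries, also without overlap (log2 fold change 1.98, SE 0.30, adjusted p = 0.00132 in edgeR). In the fit of all 12 libraries both adjusted p lay above the threshold, at 0.0731 for *Serping1* and 0.0531 for *A2m*. With the replicate block they were 0.00188 for *Serping1* and 0.000357 for *A2m* in edgeR. Astrocyte markers, given with *Plat*, were also higher in the acute lesioned libraries without overlap. So were microglia and macrophage markers, between 91.4 and 107 against between 81.5 and 84.5 CPM. The part of these cells in the 2 differences was not tested.

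*Prss12*, the gene of neurotrypsin, a neuronal protease, lay at 1.00, 0.689 and 0.576 CPM in the acute unlesioned and at 0.545, 0.0809 and 0.177 CPM in the acute lesioned libraries. Its lesioned libraries all lay below the unlesioned ones, with a log2 fold change of -1.39 (SE 0.42, adjusted p = 0.0478 in edgeR). The call did not pass in DESeq2 (adjusted p = 0.225) nor with any library other than acute lesioned replicate 1 left out (adjusted p from 0.0700 to 0.177 in edgeR). In the fit with the replicate block the log2 fold change was -1.47 (adjusted p = 0.00162 in edgeR). The summed markers of cortical glutamatergic neurons, given with *Serpini1*, had the same order as *Prss12* over the acute unlesioned libraries, were also highest in replicate 1 of the lesioned side, and were lower in each lesioned library than in the unlesioned library of its number. Their part in the *Prss12* difference was not tested. After chronic L-DOPA the log2 differences were 0.42 for *Serping1* (adjusted p = 0.502 in edgeR), -0.54 for *A2m* (adjusted p = 0.637 in edgeR) and -0.64 for *Prss12* (adjusted p = 0.704 in edgeR), and single libraries decided them. Without chronic unlesioned replicate 2, the library with the choroid plexus markers, they were 0.93 for *Serping1* (adjusted p = 0.0568 in edgeR) and 0.76 for *A2m* (adjusted p = 0.189 in edgeR). Without chronic lesioned replicate 1 the difference of *Prss12* was -3.14 (adjusted p = 0.0259 in edgeR), and without chronic unlesioned replicate 3 it was 0.014 (adjusted p = 0.997 in edgeR).

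*S100a10*, which encodes the annexin partner p11 that binds plasminogen and tissue plasminogen activator at the cell surface, differed in opposite directions after the 2 treatments. It lay at 2.39, 2.08 and 2.23 CPM in the acute unlesioned, 2.82, 2.66 and 2.81 in the acute lesioned, 2.49, 2.13 and 1.97 in the chronic unlesioned and 1.27, 1.68 and 1.41 CPM in the chronic lesioned libraries. The log2 fold change was 0.32 after acute L-DOPA (adjusted p = 0.0408 in edgeR) and -0.58 after chronic L-DOPA (adjusted p = 0.0261 in edgeR). The acute call did not pass with any single library left out (adjusted p from 0.0514 to 0.143) nor in DESeq2 (adjusted p = 0.0760), and the chronic call did not pass without chronic unlesioned replicate 1 or chronic lesioned replicate 1 or 3 (adjusted p from 0.0938 to 0.0953). In the edgeR fit with the replicate block the adjusted p was 0.013 after acute and 0.00845 after chronic L-DOPA. Oligodendrocyte markers moved in the same directions in all 6 pairs: they summed to 2550, 2400 and 2260 CPM in the acute unlesioned and 3810, 2870 and 2290 CPM in the acute lesioned libraries, and to 1720, 2460 and 1800 against 1290, 2270 and 1490 CPM after chronic L-DOPA. Their part in the *S100a10* differences was not tested. In the list of surface receptors 2 of 12 genes rose after acute L-DOPA, against 8.16% of all genes, and *S100a10* alone was called, as lower, after chronic L-DOPA, against 5.20% of all genes.

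*Tgfb1*, the gene of a growth factor whose latent form plasmin can release, was higher in the lesioned striatum after both treatments. It lay at 0.970, 1.01 and 1.15 CPM in the acute unlesioned, 1.56, 1.39 and 1.38 in the acute lesioned, 0.814, 1.14 and 0.884 in the chronic unlesioned and 7.32, 7.08 and 7.57 CPM in the chronic lesioned libraries. The log2 fold change was 0.49 after acute L-DOPA (SE 0.11, adjusted p = 0.0160 in edgeR) and 2.95 after chronic L-DOPA (SE 0.13, adjusted p = 1.40e-07 in edgeR). The acute call did not pass without acute unlesioned replicate 1 or 2 or acute lesioned replicate 1 (adjusted p from 0.0567 to 0.0678 in edgeR). Its adjusted p was 0.008 in the edgeR fit with the replicate block. Microglia and macrophage markers were also higher on the lesioned side without overlap after acute L-DOPA, between 91.4 and 107 against between 81.5 and 84.5 CPM, and their part in the acute *Tgfb1* difference was not tested. In this list of substrates 1 of 10 tested genes rose and 1 fell after acute L-DOPA, against 8.16% and 7.16% of all genes. The gene that fell, *Bdnf*, which encodes a neurotrophin whose precursor plasmin can process, was chosen after its values were seen. It lay at 0.577, 0.123 and 0.284 CPM in the acute unlesioned and at 0.144, 0.0347 and 0.0743 CPM in the acute lesioned libraries, which overlapped (log2 fold change -1.88, SE 0.56, adjusted p = 0.0458 in edgeR, and 0.000355 with the replicate block). The call did not pass without acute unlesioned replicate 1 or 3 or acute lesioned replicate 2 or 3 (adjusted p from 0.0873 to 0.203 in edgeR), and without acute unlesioned replicate 1 the log2 fold change was -1.16. It did not pass either in the fit of all 12 libraries (adjusted p = 0.0891), with the sum over transcripts (0.0619) or with 1 transcript per gene (0.0501). The cortical glutamatergic markers given with *Serpini1* were lower in each acute lesioned library than in the unlesioned library of its number, as *Bdnf* was, and their part was not tested.

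Of 7 tested serpins related to *Serpinb2*, 1 was higher and 4 were lower on the lesioned side after chronic than after acute L-DOPA, against 12.5% and 13.1% of all genes, and of 8 tested after chronic L-DOPA 2 were higher and 1 lower than on the unlesioned side, against 8.46% and 5.20%. *Serpinb5* was the 1 higher serpin between treatments and 1 of the 2 higher between the sides. It passed the count filter only through the chronic lesioned group, with 15, 15 and 13 reads there and at most 5 elsewhere. Its calls were bound to that group being high and are not a result about the list. *Serpinb1a*, an inhibitor of neutrophil proteases, had a lower level on the lesioned side after chronic than after acute L-DOPA (log2 difference -1.28, SE 0.30, adjusted p = 0.0120 in edgeR). It lay at 4.24, 2.80 and 2.95 CPM in the acute lesioned and at 0.742, 2.21 and 1.13 CPM in the chronic lesioned libraries, and the adjusted p was 0.0506 without chronic lesioned replicate 3. The monocyte, neutrophil, microglia and macrophage markers were lower in the same group, as given with *Plaur*, and so were the oligodendrocyte markers given with *S100a10*, whose order over the chronic lesioned libraries was that of *Serpinb1a*. The part of these cells in the *Serpinb1a* difference was not tested. Between the sides after chronic L-DOPA its log2 difference was -0.41 (adjusted p = 0.564 in edgeR), and -0.44 with the replicate block (adjusted p = 0.0168). *Serpina3n*, an acute-phase serpin of reactive astrocytes that was chosen after its values were seen, was higher on the lesioned side after acute (log2 fold change 1.11, adjusted p = 0.00426 in edgeR) and chronic L-DOPA (0.82, adjusted p = 0.0151 in edgeR, and 0.0717 without chronic unlesioned replicate 3). The astrocyte markers given with *Plat* were higher on the lesioned side without overlap after both treatments, and their part in the *Serpina3n* differences was not tested. Both genes have close copies in the genome and their counts may include reads of these. *Serpinb5*, a clade B neighbour of *Serpinb2* on chromosome 1 that was also chosen after its values were seen, lay at 0.171, 0.137 and 0.119 CPM in the chronic lesioned libraries and at most at 0.0465 CPM in the other 9. The chronic unlesioned striatum was at the floor, and the chronic lesioned mean was at least 5.88-fold higher. *Serpinb8*, another clade B gene, which lies nearer to *Serpinb2* than *Serpinb5* does and was chosen in the same way, differed in the opposite direction, at 0.192, 0.168 and 0.209 CPM in the chronic unlesioned and 0.114, 0.0549 and 0.0550 CPM in the chronic lesioned libraries (log2 fold change -1.38, SE 0.35, adjusted p = 0.0302 in edgeR). Its call did not pass in DESeq2 (adjusted p = 0.0878) nor without chronic unlesioned replicate 1 or 3 or chronic lesioned replicate 2 or 3 (adjusted p from 0.0841 to 0.129 in edgeR). *Serpinb8* met the count filter through the chronic unlesioned group, where it is high, with 21, 20 and 31 reads. The chronic lesioned libraries held 10, 6 and 6.

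The genes switched on by nuclear calcium rose on the lesioned side after acute L-DOPA, except *Bcl6*. The transcription factor genes *Atf3* (log2 fold change 4.73 after acute and 4.80 after chronic L-DOPA), *Npas4* (2.90 and 2.39) and *Nr4a1* (2.34 and 2.76), the growth arrest genes *Btg2* (3.64 and 3.94), *Gadd45b* (2.82 and 3.58) and *Gadd45g* (2.54 and 2.76), and the activin subunit gene *Inhba* (0.58 and 5.74) were called after both treatments in edgeR. *Bcl6*, a transcriptional repressor, was called after chronic L-DOPA only (0.42, adjusted p = 0.0161 in edgeR; 0.094, adjusted p = 0.589 after acute L-DOPA), and the difference of its lesion effects had an adjusted p of 0.242 in the edgeR interaction. Without chronic unlesioned or lesioned replicate 1 the chronic call of *Bcl6* did not pass (adjusted p = 0.0716 and 0.0668 in edgeR), and the acute call of *Inhba* did not pass without acute unlesioned replicate 1 or 2 or acute lesioned replicate 1 (adjusted p from 0.0672 to 0.0738). From acute to chronic L-DOPA *Atf3* (log2 difference -1.29, adjusted p = 0.00108) and *Npas4* (-1.09, adjusted p = 0.000648) fell in the lesioned striatum in edgeR. *Bcl6*, *Gadd45b* and *Inhba* rose there, so 3 of 8 were higher and 2 lower, against 12.5% and 13.1% of all genes. On the unlesioned side *Atf3*, *Btg2*, *Gadd45g* and *Nr4a1* were called lower, against 1.99% of all genes. Each of these calls was lost in 3 to 5 of the 6 fits without 1 library. *Inhba*, the gene nearest to *Serpinb2* with a pseudocount of 0.1 CPM, lay between 0.948 and 1.78 CPM in the 9 other libraries and at 65.5, 68.8 and 53.5 CPM in the chronic lesioned libraries. Unlike *Serpinb2*, it was measurable in all groups, and chronic lesioned replicate 2 held the highest level of both genes. *Inhba* overlaps B230303A05Rik on the opposite strand and *Bcl6* overlaps 2900064B18Rik and AK134201 on its own strand, and these genes can share reads.

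**Figure D4:**
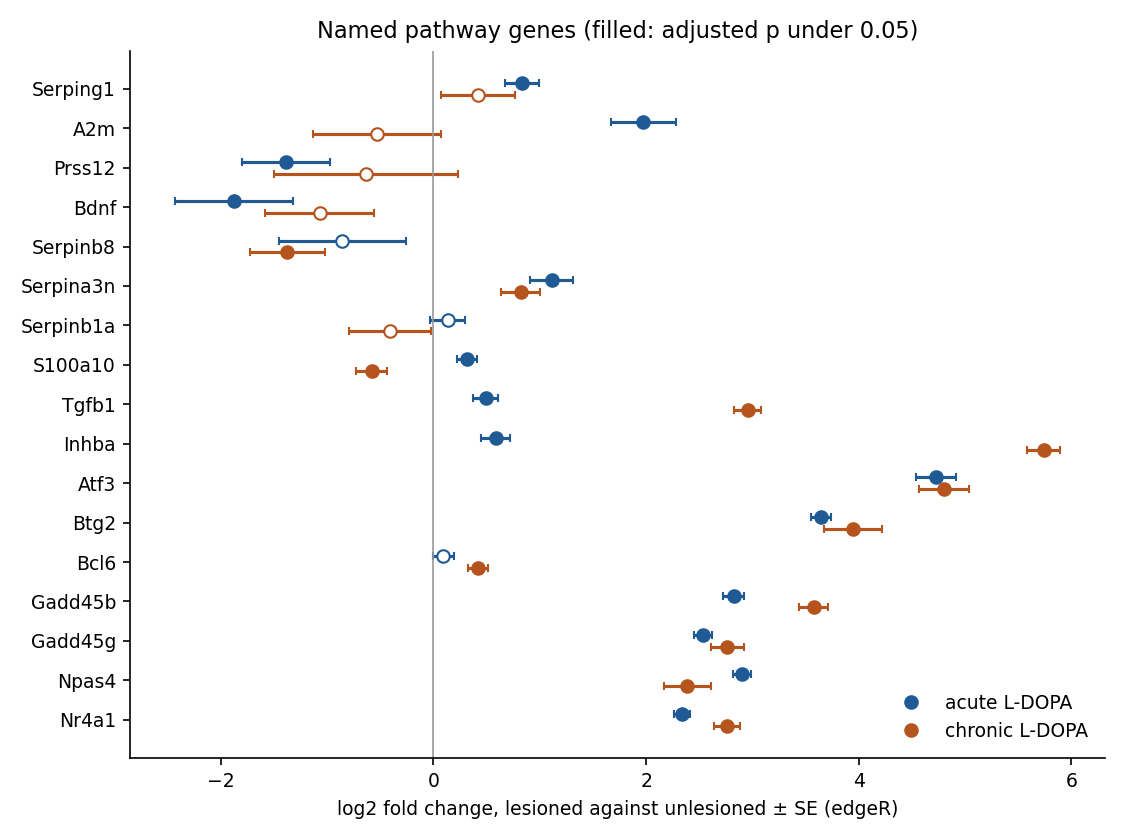
Fitted log2 fold changes (edgeR, lesioned against unlesioned, bars ± standard error) of the named pathway genes after acute and chronic L-DOPA, filled where the adjusted p lay under 0.05. *Inhba* and *Tgfb1* rose more after chronic L-DOPA (5.74 and 2.95) than after acute L-DOPA (0.58 and 0.49), and *S100a10* lies on opposite sides of 0.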

How the data were processed

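RNA-seq libraries of 12 striatal samples were analysed, 3 in each of 4 groups taken from the sample labels. Libraries had been made with a TruSeq kit, sequenced on a Genome Analyzer and mapped to mm9 in Genomatix software, and the submitters' processing notes name DESeq. The mapper's settings for strand and for reads with several positions are not given in the sources used here. The authors deposited raw read counts per transcript for 189660 transcripts, which were used for every result. A normalized expression signal per transcript, which the authors also deposited, was not used. Their tables of comparisons, which hold DESeq fold changes, p-values and 36 columns of per-sample values, were not used either. A share of 0.0485% of all counts lay on 296 transcripts without a gene name, which were left out, and library totals lay between 87695043 and 173116525 counts.

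The 4 comparisons of 2 groups were fitted on 6 libraries each, and the difference of the lesion effects as an interaction on all 12, with edgeR 4.0.16 (R 4.3.3): filterByExpr by group, TMM, glmQLFit and glmQLFTest, with Benjamini-Hochberg adjustment over all transcripts tested and calls at an adjusted p under 0.05. Standard errors were derived from the log2 fold change and the F statistic. The fits were tested on simulated data. Levels are CPM of the top transcript per gene, a group at or below 3 counts in each library is at the floor, and floors cover counting error only. Promoter windows were read from the mm9 genome, and the start used was changed after a first search.

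The members, the gene lists and the tests were chosen with earlier results of these data known. The genes named are the 6 members, the 5 genes most like *Serpinb2* and the 3 most like each other member by Pearson's r of log2(CPM + 1), the 2 largest rises and falls per comparison among called list genes whose mean reached 1 CPM, and the genes of the nuclear calcium list; others are marked as chosen after their values were seen. A few genes of the lists are not reported here and are in no count of list genes. Same-numbered lesioned and unlesioned libraries deviated together from their group means over 12795 genes, with correlations of 0.478, 0.490 and 0.384 after acute and 0.513, 0.573 and 0.160 after chronic L-DOPA, all over 0.1, so the numbers were taken to pair the libraries within a treatment on the evidence of the data alone. Chronic lesioned replicate 1 also reached 0.153 with chronic unlesioned replicate 3, so after chronic L-DOPA the threshold did not single out same-numbered pairs. Alternatives were DESeq2's size factors, DESeq2 1.42.0, no count filter, a threshold of 0.01, 1 transcript per gene, the sum over transcripts, a fit of all 12 libraries, the replicate block and each library left out in turn.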

Additional observations from a re-analysis of the deposited data

Results flagged for a closer look

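In 4 of 55 tested genes of the pathway lists, 3 higher and 1 lower, the lesion effect differed between chronic and acute L-DOPA in the edgeR interaction over all 12 libraries, where 3.53% of 20682 genes were higher and 1.56% lower. The chronic minus acute difference of the log2 fold changes was 5.16 for *Inhba* (adjusted p = 1.87e-08), 2.47 for *Tgfb1* (adjusted p = 4.19e-07) and 0.76 for *Gadd45b* (adjusted p = 0.0214), and it was negative, -0.89, for *S100a10* (adjusted p = 0.00589), each from the edgeR quasi-likelihood F-test, adjusted after Benjamini-Hochberg across the whole table. Over the fits that leave out 1 library, the difference stayed between 5.05 and 5.32 for *Inhba*, between 2.39 and 2.62 for *Tgfb1* and between -1.01 and -0.79 for *S100a10*. The call of *Gadd45b* was lost without acute unlesioned replicate 3, acute lesioned replicate 2 or 3, or chronic lesioned replicate 1 or 3 (adjusted p from 0.0503 to 0.0660). None of the 5 tested members was called in this comparison, and *Serpinb2* was not tested.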

How the results depend on the processing

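The direction of the *Plat* difference and its calls after both treatments held under each alternative run, with log2 fold changes from 0.81 to 0.99 after acute and from 0.79 to 0.95 after chronic L-DOPA as each library was left out. With the replicate block 3 instead of 1 tested members were called after acute L-DOPA, and 9 instead of 4 pathway genes in the interaction, where the log2 difference of *Plaur* turned to -0.008; over all transcripts the block called 28237 instead of 16684 after acute L-DOPA, 27505 instead of 15295 after chronic L-DOPA and 15875 instead of 5911 in the interaction. Same-numbered libraries of different treatments had correlations from -0.139 to 0.23 and passed 0.1 for replicate 3 alone, so their numbers were not taken to pair them, and beyond the calls given with *Plaur* and *Serpini1* the block changed no call of a member. At an adjusted p under 0.01, 1 member was called after chronic L-DOPA and 0 between treatments in the lesioned striatum, with 9 pathway genes after acute L-DOPA, 10 between treatments in the lesioned and 0 in the unlesioned striatum. The share of all genes at this threshold is not given here. In the unlesioned striatum between treatments DESeq2 and the fit without a filter each called 2 members, and the sum over transcripts called 0 pathway genes. Over all transcripts DESeq2 called 6278 and the fit without a filter 5821, where the main fit called 3366, and the sum over transcripts called 101 genes. As each library was left out, the members called ranged from 1 to 2 after acute and after chronic L-DOPA, from 0 to 2 between treatments in the lesioned and from 0 to 1 in the unlesioned striatum, and the pathway genes called in the unlesioned striatum from 0 to 13. The 13 were called without chronic unlesioned replicate 2, the library with the choroid plexus markers, where 14377 instead of 3366 transcripts were called. Differences near 0 changed sign as libraries were left out: *Serpine2* after chronic L-DOPA ranged from -0.023 to 0.059, *Serpini1* between treatments in the lesioned striatum from -0.084 to 0.20, *Plau* between treatments in the unlesioned striatum from -0.43 to 0.057, and in the interaction *Plat* ranged from -0.11 to 0.079, *Plau* from -0.45 to 0.03 and *Plaur* from -0.55 to 0.52, and the cause was not tested. Of the 5 genes most like *Serpinb2*, 1 remained with a pseudocount of 0.1 CPM and 0 with Spearman's rank correlation, and between 0 and 5 as each chronic lesioned library was left out. With a floor of 5 counts the lower bounds of the *Serpinb2* fold were 107, 76.9 and 90.1 against the acute unlesioned, acute lesioned and chronic unlesioned striatum; summed over its transcripts the gene exceeded 3 counts in each group, so that no bound of this kind was given. *Plau* and *Plaur* had under 1 CPM in all libraries but 1, the lowest levels among the tested members.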
